A study of Gallus gallus with 9 samples.

Results

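Integrin subunits were followed in DF-1 cells, chicken embryo fibroblasts that divide without limit, by RNA sequencing of attached and suspended cultures. The list held 10 subunits, chosen by name and grouped by the ligand they bind. Of these, 9 had a row in the table of 15294 genes, and ITGA5, the fibronectin receptor subunit, was not analysed here. The study moved wild-type DF-1 cells from attached growth, labelled 2D, to suspension without carriers, labelled 3D_E and 3D_L. Each group held 3 libraries of polyadenylated RNA. What E and L stand for is left unsaid in the labels, as are culture time and medium. All groups are the same line, and no added gene or drug is named. Whether replicate libraries are from separate cultures is not stated, so p-values here measure library-to-library spread alone, which may be technical.

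Integrins are the receptors that hold cells to the extracellular matrix. Each is a pair of an alpha and a beta chain, both of which cross the membrane. The alpha chain largely sets the ligand, and the tail of the beta chain binds talin and kindlin, which link the receptor to actin. ITGA3 and ITGA6 make laminin receptors, ITGA1 and ITGA2 make collagen receptors, and ITGA5, ITGA8 and ITGAV make receptors for proteins with the arginine-glycine-aspartate motif, RGD. ITGB1 is the shared partner of most of these alpha chains. ITGB3 and ITGB5 pair with ITGAV and make receptors that bind vitronectin.

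The values are the authors' FPKM, fragments scaled by transcript length and library size, so that levels of different genes can be set side by side. The depth of the libraries is unknown. Values by library are given in the order of replicates 1, 2 and 3, numbers to which the labels give no further meaning. In these bulk samples, fewer expressing cells and less RNA per cell cannot be told apart. Each change is given as a difference in log2(FPKM + 1) with its SE from limma, and a gene rose or fell where the p-value, adjusted over all 10436 genes tested, was under 0.05. Genes were tested if they reached 1 FPKM in at least 3 libraries. That held for 7 of the 9 subunits, and ITGA1 and ITGA2 did not reach it.

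Libraries of 3D_E differed more among themselves than those of the other groups. Replicates 1 and 3 of 3D_E lay 0.438 and 0.423 from the mean of their group mates, as a root mean square over tested genes on the log2 scale, against 0.121 to 0.245 in the other 7 libraries, where the highest was replicate 3 of 3D_L. Among fibroblast markers, 11 of 12 were tested and their summed level was 2776 to 3438 FPKM in 2D, with 5512 to 6760 in 3D_E and with 5108 to 5138 in 3D_L. The filament protein VIM carried most of the higher sum, at 319.9 ± 11.8 in 2D, 2581 ± 419 in 3D_E and 1899 ± 106 in 3D_L, while COL1A1 and COL1A2 fell in 3D_E (limma, adjusted p = 0.0130 and adjusted p = 5.32e-04). PDGFRA, a fibroblast receptor, stayed at or under 0.25 FPKM in every library. The 7 epithelial markers found summed to between 0.15 and 2.01 FPKM in every library, the 8 endothelial markers to between 3.80 and 12.6 and the 6 blood and immune markers to between 7.96 and 14.3. Members of these lists went different ways. EPCAM and CDH1 of epithelium, KDR of endothelium and PTPRC of blood cells stayed under 1 FPKM in every library. The endothelial cadherin CDH5 stood at 6.79 ± 0.113 FPKM in 2D, at 1.51 ± 0.393 in 3D_E and at 9.83 ± 0.297 in 3D_L, and the epithelial factor GRHL2 at 1.74 ± 0.129, 0.150 ± 0.0458 and 0.860 ± 0.0854. PECAM1 of endothelium and CSF1R of macrophages rose in 3D_E, from 0.200 ± 0.0755 to 1.74 ± 0.620 and from 0.260 ± 0.0721 to 1.93 ± 0.810 (limma, adjusted p = 8.89e-05 and adjusted p = 2.23e-04). Both were under 1 FPKM in every 2D and 3D_L library and passed the filter only through 3D_E. A marker under 1 FPKM in every library could not be called in either direction. The T cell gene CD3E stood at 7.45 ± 0.826 in 2D, at 6.68 ± 2.11 in 3D_E and at 6.49 ± 0.758 in 3D_L. The 2 skeletal muscle markers found summed to at most 0.15 FPKM in any library. Smooth muscle markers, led by the actin ACTA2 that cultured fibroblasts also make, summed to 1956 to 2151 FPKM in 2D, with 317 to 515 in 3D_E and with 318 to 355 in 3D_L. The part of these markers in the integrin results was not tested.

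The order of the subunits by level differed between attached and suspended cells. In 2D, ITGB1 was the highest at 407 ± 5.48 FPKM (SD, n = 3), above ITGA3 at 355 ± 38.3, ITGA6 at 187 ± 15.4, ITGAV at 139 ± 26.7 and ITGB5 at 132 ± 7.93. ITGA8 and ITGB3 followed at 7.73 ± 0.255 and 4.15 ± 0.500. In 3D_E and in 3D_L the highest subunit was ITGB5, at 331 ± 59.4 and 378 ± 9.15, with ITGB1 below it at 181 ± 48.7 and 263 ± 1.74. ITGB5 lay above ITGB1 in every suspended library and below it in every attached library.

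Some neighbours in that order overlapped. ITGAV and ITGB5 overlapped in 2D. ITGA6 overlapped with ITGAV in 3D_E and in 3D_L. ITGAV also overlapped with ITGA8 in 3D_E, and ITGA3 with ITGA6 in 3D_L. All other neighbours were apart in all libraries of a group.

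**Figure D1:**
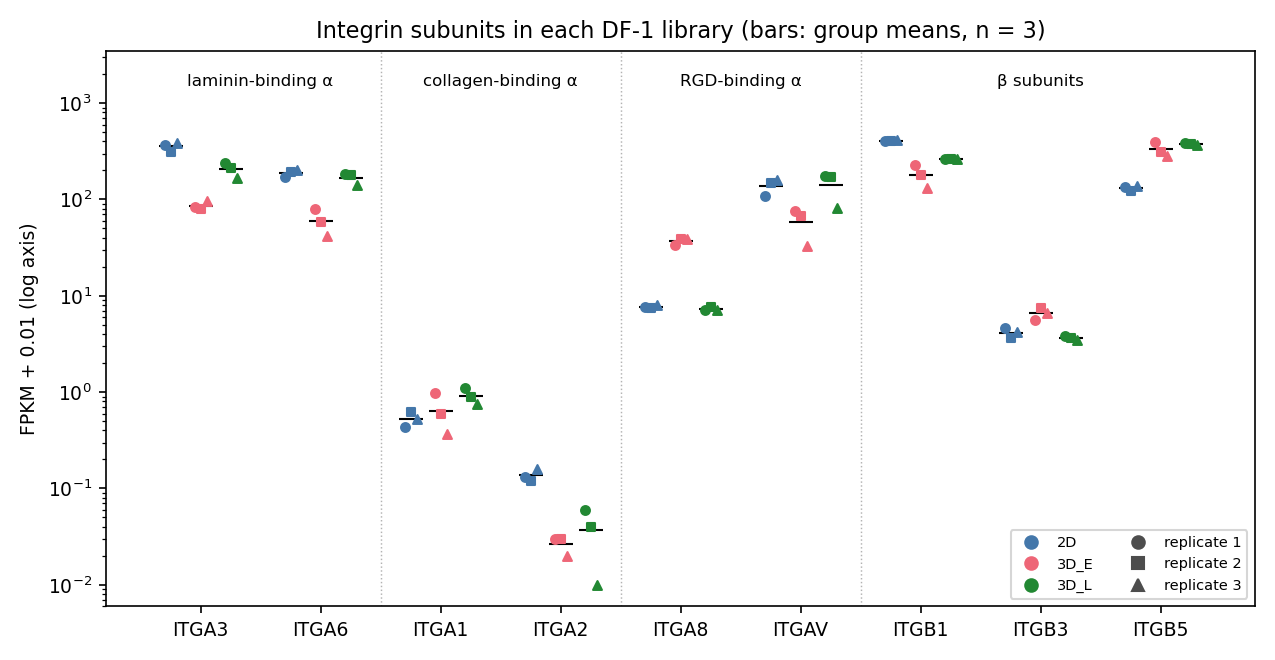
FPKM of the 9 subunits in each library on a log axis, after adding 0.01 so that a 0 can be drawn; colours are groups, shapes are replicates and bars are group means. ITGB5 is higher in all suspended libraries than in 2D, ITGA8 is higher in 3D_E alone, and ITGA1 and ITGA2 lie far below the others.

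The laminin-binding subunits fell in 3D_E. ITGA3 (NCBI gene 373946) stood at 369, 312 and 385 FPKM in 2D, at 83.05, 79.3 and 97.0 in 3D_E and at 238, 213 and 166 in 3D_L. The 3 groups did not overlap, with 2D highest and 3D_E lowest. The log2 change was -2.03 ± 0.15 in 3D_E and -0.80 ± 0.15 in 3D_L against 2D (limma, adjusted p = 1.56e-06 and adjusted p = 0.00234). Between the suspended groups ITGA3 was higher in 3D_L by 1.23 ± 0.15 (limma, adjusted p = 1.14e-04). In size, the fall in 3D_E exceeded the changes of 95.4% of tested genes.

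ITGA6 (NCBI gene 396226) stood at 170.3, 192 and 199.9 FPKM in 2D, at 79.1, 59.1 and 41.7 in 3D_E and at 183, 179 and 143 in 3D_L. The 3D_E libraries lay below all others, and those of 2D and 3D_L overlapped. ITGA6 fell in 3D_E against 2D by 1.67 ± 0.20 on the log2 scale and was higher in 3D_L than in 3D_E by 1.51 ± 0.20 (limma, adjusted p = 5.46e-05 and adjusted p = 2.42e-04). Against 2D, 3D_L differed by -0.16, with a 95% interval from -0.61 to 0.29 (limma, adjusted p = 0.568). The interval leaves room for a fall as well as for a small rise. ITGA6 can also pair with ITGB4, the beta chain of hemidesmosomes, which stayed at or below 0.13 FPKM in every library.

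The collagen-binding subunits on the list had the lowest levels of the 9. ITGA1 stayed at or under 1.09 FPKM, and 32.4%, 30.3% and 33.2% of all genes in the table were lower in 2D, 3D_E and 3D_L. For ITGA2 these shares were 25.8%, 9.51% and 13.5%. ITGA1 (NCBI gene 395951) stood at 0.42, 0.61 and 0.51 FPKM in 2D, at 0.96, 0.58 and 0.36 in 3D_E and at 1.09, 0.87 and 0.74 in 3D_L. All 3D_L values lay above those of 2D, and 3D_E overlapped both. ITGA2 (NCBI gene 100857227) stood at 0.12, 0.11 and 0.15 in 2D, at 0.02, 0.02 and 0.01 in 3D_E and at 0.05, 0.03 and 0 in 3D_L. Every suspended library lay below the attached ones. When genes were tested without a filter on low values, ITGA2 gave -0.15 in 3D_E and -0.13 in 3D_L against 2D (limma, adjusted p = 8.20e-04 and adjusted p = 0.00358), and ITGA1 gave 0.10 and 0.33 (limma, adjusted p = 0.572 and adjusted p = 0.102). These are changes of a fraction of 1 FPKM.

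A further collagen receptor subunit that was not on the list, ITGA11, was abundant. ITGA11 stood at 167, 148 and 179 FPKM in 2D, at 68.5, 75.4 and 90.4 in 3D_E and at 119.6, 116 and 99.3 in 3D_L. No library of a group overlapped with another group. ITGA11 fell by 1.07 ± 0.13 in 3D_E and by 0.56 ± 0.13 in 3D_L against 2D (limma, adjusted p = 4.75e-05 and adjusted p = 0.00747).

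The RGD-binding alpha subunits did not move together. ITGA8 (NCBI gene 396225), which pairs with ITGB1 and binds nephronectin, fibronectin and osteopontin, stood at 7.73, 7.48 and 7.99 FPKM in 2D, at 33.8, 39.0 and 39.1 in 3D_E and at 7.15, 7.65 and 7.17 in 3D_L. The 3D_E libraries lay far above the rest, and those of 2D and 3D_L overlapped. The rise in 3D_E was 2.13 ± 0.09, a ratio of means of 4.82 (limma, adjusted p = 4.27e-08). From 3D_E to 3D_L the difference was -2.20 ± 0.09 (limma, adjusted p = 1.73e-07), and only 40 of the 10436 tested genes had a lower value. Against 2D, 3D_L differed by -0.07, with a 95% interval from -0.27 to 0.13 (limma, adjusted p = 0.572).

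ITGAV (NCBI gene 396420), the subunit shared by several vitronectin receptors, stood at 109, 149.98 and 159 FPKM in 2D, at 75.8, 67.4 and 32.6 in 3D_E and at 175, 169.5 and 81.7 in 3D_L. All 3D_E libraries lay below the others, while replicate 3 of 3D_L lay below every 2D library and its group mates lay above them. Within 3D_L the SD of ITGAV on the log2 scale was 0.62, beside a median of 0.10 over all tested genes, and 99.5% of them had a smaller SD. ITGAV fell in 3D_E against 2D by 1.30 ± 0.36 (limma, adjusted p = 0.00852) and was higher in 3D_L than in 3D_E by 1.27 ± 0.36 (limma, adjusted p = 0.0138). The latter was no longer called without replicate 1 of 3D_L (1.08, limma, adjusted p = 0.0548) or without its replicate 2 (1.10, limma, adjusted p = 0.0547). Between 3D_L and 2D the difference was -0.03, with a 95% interval from -0.83 to 0.77 (limma, adjusted p = 0.953), and without replicate 3 of 3D_L it was 0.32 (limma, adjusted p = 0.488).

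Among the beta chains, ITGB1 fell and ITGB5 rose in both suspended groups. ITGB1 (NCBI gene 374058) stood at 404, 403 and 413 FPKM in 2D, at 229.9, 181 and 132 in 3D_E and at 262, 265 and 261 in 3D_L. Its groups did not overlap, and its libraries were closely alike in 2D and 3D_L and spread in 3D_E. ITGB1 fell by 1.20 ± 0.16 in 3D_E and by 0.63 ± 0.16 in 3D_L against 2D (limma, adjusted p = 1.30e-04 and adjusted p = 0.0145). It was higher in 3D_L than in 3D_E by 0.57 ± 0.16 (limma, adjusted p = 0.0160).

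ITGB5 (NCBI gene 395142) stood at 135, 123 and 138 FPKM in 2D, at 398, 310.4 and 285 in 3D_E and at 387, 379 and 369 in 3D_L. Every suspended library lay above every attached library. The rise was 1.31 ± 0.12 in 3D_E and 1.51 ± 0.12 in 3D_L, with ratios of means of 2.51 and 2.86 (limma, adjusted p = 1.01e-05 and adjusted p = 1.38e-05). In 3D_L the size of this change exceeded that of 97.9% of tested genes. The suspended groups overlapped, and 3D_L differed from 3D_E by 0.21, with a 95% interval from -0.07 to 0.48 (limma, adjusted p = 0.183). Without replicate 1 of 3D_E, the highest of that group, the difference was 0.35 and was called (limma, adjusted p = 0.00545).

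ITGB3 (NCBI gene 374209), best known from platelets and osteoclasts in mammals, was low. It stood at 4.60, 3.61 and 4.23 FPKM in 2D, at 5.64, 7.39 and 6.60 in 3D_E and at 3.83, 3.60 and 3.5 in 3D_L. The 3D_E libraries were the highest, and 2D and 3D_L overlapped. ITGB3 rose by 0.55 ± 0.11 in 3D_E against 2D and was lower in 3D_L than in 3D_E by 0.69 ± 0.11 (limma, adjusted p = 0.00176 and adjusted p = 8.26e-04). Between 3D_L and 2D the difference was -0.14, with a 95% interval from -0.40 to 0.11 (limma, adjusted p = 0.354), and with quantile normalization it was -0.32 and called (limma, adjusted p = 0.0324).

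**Figure D2:**
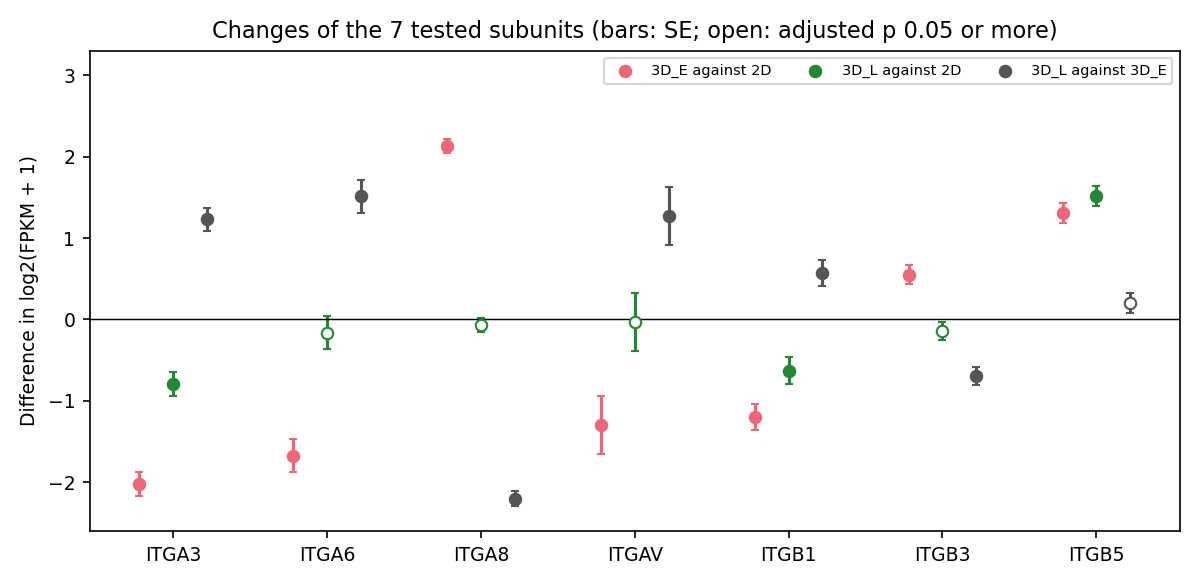
Differences in log2(FPKM + 1) of the 7 tested subunits in the 3 comparisons, with SE as bars; filled points have an adjusted p under 0.05 in limma and open points do not. ITGB5 is up by 1.31 and 1.51 against 2D, and ITGA8 moves by 2.13 and by -2.20.

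Counted over the 7 tested subunits, 3 rose and 4 fell in 3D_E against 2D, so that 7 of 7 changed, beside 68.2% of all tested genes (36.1% rose and 32.1% fell). In 3D_L against 2D, 1 rose and 2 fell, and 3 of 7 changed beside 36.4% of all tested genes (20.3% rose and 16.2% fell). In 3D_L against 3D_E, 4 rose and 2 fell, and 6 of 7 changed beside 53.6% (27.2% rose and 26.4% fell). Groups did not overlap for 7, 3 and 6 of the 7 subunits in these comparisons, beside 70.6%, 62.8% and 56.5% of all tested genes. With 7 genes these counts do not set the subunits apart from other genes. Their median size of change was 1.31 on the log2 scale in 3D_E against 2D, 0.16 in 3D_L against 2D and 1.23 between the suspended groups, and over all tested genes it was 0.54, 0.27 and 0.38. The comparisons share libraries, and their values are set side by side without a test between them.

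A share within a library does not depend on the scaling between libraries. Of the summed FPKM of the 6 alpha subunits found, the laminin-binding pair held 82.2%, 76.1% and 77.7% in 2D, 59.4%, 56.4% and 65.8% in 3D_E and 69.7%, 68.7% and 77.5% in 3D_L. The 3D_E libraries had the smallest share, apart from all others. The mean difference from 2D was -18.1 percentage points in 3D_E and -6.71 in 3D_L (2-sided exact permutation test, p = 0.1 and p = 0.2). With 3 libraries against 3 the smallest possible p is 0.1. The RGD-binding share lacks ITGA5, which had no row. ITGA8 and ITGAV together held 21.2% ± 3.14 in 2D, 39.2% ± 4.76 in 3D_E and 27.9% ± 4.81 in 3D_L. Their difference from 2D was 18 points in 3D_E and 6.63 in 3D_L (2-sided exact permutation test, p = 0.1 and p = 0.2). From 3D_E to 3D_L the laminin-binding share differed by 11.4 points and the RGD-binding share by -11.3 (2-sided exact permutation test, p = 0.1 for each). When every integrin alpha subunit of the table formed the whole, the RGD-binding share differed by -5.66 points and its groups overlapped (exact permutation test, p = 0.3). With that whole, the laminin-binding share differed from 2D by -17.8 points in 3D_E and by -4.28 in 3D_L. Neither group then overlapped with 2D (2-sided exact permutation test, p = 0.1 for each).

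ITGA8 accounted for most of the RGD-binding difference in 3D_E. Its own share was 1.12% ± 0.0577 in 2D, 15.6% ± 3.08 in 3D_E and 1.44% ± 0.321 in 3D_L, and that of ITGAV was 20.1% ± 3.17, 23.6% ± 7.03 and 26.4% ± 5.11. ITGAV was at 14.1, 20.1 and 19.9 times the level of ITGA8 in 2D, at 2.24, 1.73 and 0.834 times in 3D_E and at 24.5, 22.2 and 11.4 times in 3D_L. In replicate 3 of 3D_E ITGA8 was thus the higher of the pair. ITGA1 and ITGA2 together held 0.0929% ± 0.0140 in 2D, 0.260% ± 0.0928 in 3D_E and 0.178% ± 0.0171 in 3D_L, differences from 2D of 0.167 and 0.0847 points (2-sided exact permutation test, p = 0.1 for each). The abundant ITGA11 is not part of that share, and held 18% ± 1.02, 22.4% ± 4.82 and 16.6% ± 1.70 of all alpha subunits of the table in 2D, 3D_E and 3D_L, with overlap in each comparison. Between the suspended groups the share of ITGA1 with ITGA2 differed by -0.0822 points with overlap (exact permutation test, p = 0.3). The alpha subunits on the list summed to a mean of 690 FPKM in 2D and 243 in 3D_E, so a higher share need not be a higher level. ITGAV had a higher mean share in 3D_E than in 2D, though its level fell.

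Of the summed FPKM of the 3 beta subunits, ITGB5 held 24.9%, 23.2% and 24.8% in 2D, 62.8%, 62.2% and 67.2% in 3D_E and 59.2%, 58.5% and 58.2% in 3D_L. The share was at least 58.2% in every suspended library and at most 24.9% in every attached one. ITGB1 held 74.9% ± 1.01, 34.6% ± 2.90 and 40.8% ± 0.541. The ratio of ITGB5 to ITGB1 was 0.325 ± 0.0167 in 2D, 1.86 ± 0.245 in 3D_E and 1.44 ± 0.0321 in 3D_L, with no overlap between any groups (2-sided exact permutation test, p = 0.1 for each comparison). Against its partner ITGAV, ITGB5 was at 1.25, 0.820 and 0.867 times in 2D, at 5.25, 4.60 and 8.73 times in 3D_E and at 2.21, 2.23 and 4.51 times in 3D_L. All suspended libraries again lay above the attached ones.

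The sums of the alpha and of the beta chains differed in different ways between groups. The 6 alpha subunits summed to 690 ± 53.6 FPKM in 2D, with 243 ± 31.1 in 3D_E and with 524 ± 110.3 in 3D_L. The 3 beta subunits summed to 543 ± 12.9, 519 ± 106 and 644 ± 10.2. The ratio of the sums was 1.27 ± 0.0768 in 2D, 0.473 ± 0.0371 in 3D_E and 0.811 ± 0.160 in 3D_L, and the groups did not overlap (2-sided exact permutation test, p = 0.1 for each comparison). These sums leave out ITGA5, which had no row, and subunits outside the list such as ITGA11 and ITGA4. The level of the ratio thus depends on which subunits were listed and found.

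**Figure D3:**
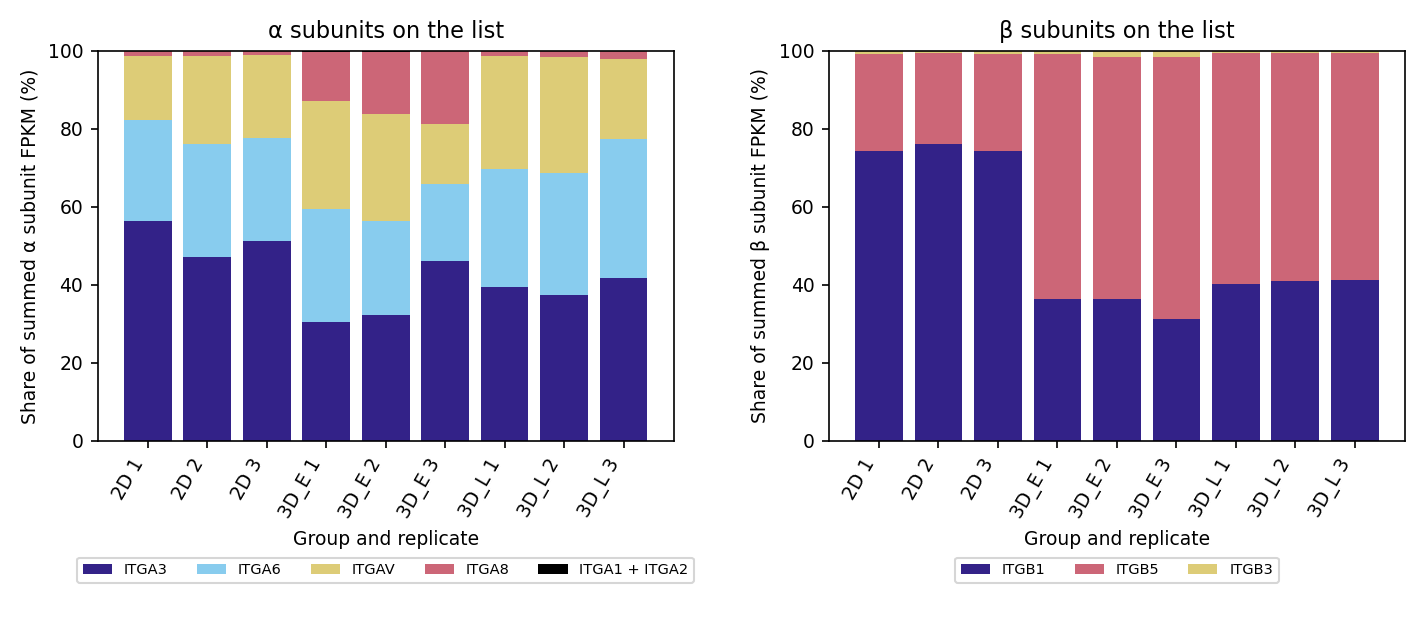
Share of each subunit in the summed FPKM of the alpha subunits (left) and of the beta subunits (right) on the list, in percent, with 1 bar per library. ITGA8 holds 15.6% of the alpha sum on average in 3D_E, ITGB5 holds at least 58.2% of the beta sum in all suspended libraries, and ITGA1 with ITGA2 is too small to be seen.

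Single libraries were the lowest of their group for several subunits. Replicate 3 was the lowest 3D_L library for 6 of the 7 tested subunits, all but ITGA8, beside 40.6% of tested genes. For some of them the 3D_L libraries hardly differed, with the highest value 1.09 times the lowest for ITGB3 and 1.05 times for ITGB5. In 3D_E, replicate 3 was the lowest for 4 of the 7, beside 40.6% of tested genes, namely ITGA6, ITGAV, ITGB1 and ITGB5. It was the highest 3D_E library for ITGA3 and ITGA8. Over all tested genes, replicate 2 of 3D_E was the lowest of its group for 11.1% and the highest for 9.74%. It thus mostly lay between replicates 1 and 3. With 7 genes, nothing particular to the subunits is read from these counts. The highest value of ITGAV was 2.33 times the lowest within 3D_E and 2.14 times within 3D_L, while for ITGB1 it was 1.74 times within 3D_E and 1.01 times within 3D_L.

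The genes most like a subunit over the 9 libraries were sought among 8002 other tested genes with a symbol and a mean of at least 5 FPKM. The measure was the root mean square difference of log2 values, each centred on its mean. For ITGA3 these were CD320, a receptor for the vitamin B12 carrier, at 0.15, and the kinases NUAK2 and PAK1 at 0.16, beside a median of 0.86. CD320 stood at 23.1 ± 3.04 FPKM in 2D, with 4.97 ± 0.864 in 3D_E and with 13.2 ± 1.18 in 3D_L. For ITGAV they were FECH, the last enzyme of haem synthesis, at 0.14, DNAJC5, a cochaperone of vesicles, at 0.20 and ELMOD2 at 0.21, beside a median of 0.77. FECH had the same lowest library as ITGAV in each group, with 11.0, 18.1 and 15.6 FPKM in 2D, with 8.34, 6.63 and 3.17 in 3D_E and with 16.2, 15.4 and 7.96 in 3D_L. For ITGB1 they were DRAM2 at 0.06, TXNDC5, a protein disulfide isomerase, at 0.07 and CHPT1, an enzyme of phosphatidylcholine synthesis, at 0.07, beside a median of 0.57. Among the subunits, ITGA6 and ITGAV were the closest pair at 0.29, and ITGA3 and ITGA8 the most distant at 1.82.

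For the lists that follow, the shares over all tested genes were 36.1% rising and 32.1% falling in 3D_E against 2D, 20.3% and 16.2% in 3D_L against 2D, and 27.2% and 26.4% in 3D_L against 3D_E, and nothing is read as particular to a list. A gene under 1 FPKM in all 2D libraries was tested only if suspended libraries passed the filter, so calls among such genes lean to rises. Of the 16 further integrin subunits listed, 10 were found and 6 tested, of which 2 rose and 3 fell in 3D_E against 2D. The 2 that rose were under 5 FPKM in every library and were not tested with a filter of 5 FPKM. ITGA4, which binds fibronectin and VCAM1, fell from 46.0 ± 2.84 to 23.9 ± 6.58 FPKM, and ITGA9, a tenascin receptor subunit, fell from 13.3 ± 1.38 to 3.92 ± 0.325. These are log2 changes of -0.95 and -1.54 (limma, adjusted p = 7.98e-04 and adjusted p = 6.17e-05). ITGB8, which pairs with ITGAV and binds latent TGF-beta, rose from 1.67 ± 0.429 to 4.44 ± 0.140, and ITGA7, a laminin receptor subunit of muscle, rose from 0.233 ± 0.0603 to 1.97 ± 0.465. In 3D_L, ITGA7 stood at 2.15 ± 0.393 and ITGA9 at 7.30 ± 2.28, the former higher and the latter lower than in 2D (limma, adjusted p = 5.94e-05 and adjusted p = 0.00778). ITGA7 was under 1 FPKM in every 2D library and passed the filter only through the suspended ones. ITGB8 was at 1.92 ± 0.200 in 3D_L and ITGA4 at 36.4 ± 4.16 (limma, adjusted p = 0.399 and adjusted p = 0.160 against 2D). ITGA4 was called in that comparison, at -0.33, without replicate 1 or replicate 3 of 3D_E, which enter through the shared spread (limma, adjusted p = 0.0330 and adjusted p = 0.0433). Like ITGA8 and ITGB3, ITGB8 was lower in 3D_L than in 3D_E, by 0.90 (limma, adjusted p = 2.58e-04). ITGAD, named for a leukocyte subunit, stayed between 0.95 and 1.80 FPKM. Its difference of -0.30 between 3D_L and 2D was likewise called only without replicate 1 or replicate 3 of 3D_E, among the single libraries left out (limma, adjusted p = 0.0434 and adjusted p = 0.0294, and 0.0577 with all libraries).

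Matrix genes were listed by the same 3 ligand classes, and no test between the classes was made. Of 16 tested genes listed as RGD ligands, 9 rose and 2 fell in 3D_E against 2D. Their median log2 change was 0.68, beside 0.05 over all tested genes. Whether each listed protein carries the RGD motif itself was not checked, POSTN, CYR61 and CTGF among them. NPNT, POSTN, SPP1 and TGFBI were under 1 FPKM in every 2D library and passed the filter only through suspended libraries. FBLN5, at 0.717 ± 0.0929 FPKM in 2D and 0.0467 ± 0.0503 in 3D_E, did not pass it. The count and the median thus depend in part on the filter. NPNT, nephronectin, stood at 0.47, 0.44 and 0.66 FPKM in 2D, at 8.45, 9.04 and 6.90 in 3D_E and at 0.96, 0.84 and 0.92 in 3D_L. As with ITGA8, the 3D_E libraries were the highest. NPNT rose by 2.58 in 3D_E and was lower in 3D_L than in 3D_E by 2.25 (limma, adjusted p = 5.64e-08 and adjusted p = 4.63e-07). As NPNT passed the filter of 1 FPKM only through 3D_E, these calls are no separate support for its high level there. POSTN, periostin, which can bind integrins with ITGAV, stood at 0.96, 0.65 and 0.86 in 2D, at 355, 340.1 and 252 in 3D_E and at 29.9, 32.3 and 30.8 in 3D_L. SPP1, osteopontin, stood at 16.9 ± 1.66 in 3D_E and 3.21 ± 0.854 in 3D_L against 0.0700 ± 0.0700 in 2D. The growth factor TGFB3, whose latent form carries the motif in mammals, stood at 74.9 ± 0.848 in 2D, 14.1 ± 3.3 in 3D_E and 83.7 ± 3.71 in 3D_L, higher in 3D_L than in 3D_E by 2.51 (limma, adjusted p = 6.78e-07). VTN and FN1, vitronectin and fibronectin, were picked after their values were seen. VTN stayed at or below 0.15 FPKM, and FN1 stood at 501 ± 95.9 in 2D, 647 ± 124 in 3D_E and 825 ± 124 in 3D_L (limma, adjusted p = 0.103 and adjusted p = 0.0133 against 2D).

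Among laminins, nidogens and related proteins, 7 of 16 were tested, and 3 rose and 2 fell in 3D_E against 2D, with a median of 0.10. LAMA5, a laminin alpha chain bound by receptors with ITGA3 or ITGA6, rose from 18.2 ± 2.95 to 67.7 ± 21.8 FPKM, and LAMB2 from 3.55 ± 1.06 to 20.2 ± 6.48 (limma, adjusted p = 9.19e-05 and adjusted p = 1.98e-05). These rose in the group in which ITGA3 and ITGA6 were lowest. In 3D_L, LAMA5 stood at 34.4 ± 7.02 and LAMB2 at 6.91 ± 0.390 (limma, adjusted p = 0.0164 and adjusted p = 0.0193 against 2D). Both calls were lost without replicate 2 of 2D (limma, adjusted p = 0.0731 for LAMA5 and 0.0809 for LAMB2) and without replicate 1 of 3D_L (0.0677 and 0.0649). LAMA5 was also lost without replicate 2 of 3D_L (limma, adjusted p = 0.0620), and LAMB2 without its replicate 3 (0.0531).

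Of 11 tested collagens, 5 rose and 3 fell in 3D_E against 2D, beside 36.1% and 32.1% of all tested genes. In 3D_L against 3D_E, 11 of 11 fell, beside 26.4%. The latter count was 7 without replicate 2 of 3D_E, without replicate 1 of 3D_L or without replicate 3 of 3D_L. Both counts depend in part on the filter. COL13A1 was at 0 FPKM in every 2D library and at most at 0.84 in 3D_L, and passed the filter only through 3D_E. Its rise and its fall are thus no separate support. COL23A1 was at most at 0.60 FPKM in 2D and passed only through suspended libraries. COL6A1 of the microfibrillar type VI collagen rose from 93.3 ± 9.92 to 332 ± 2.97 FPKM in 3D_E and stood at 146 ± 12 in 3D_L. COL1A1, the main chain of type I collagen, fell in 3D_L from 839 ± 162 to 252 ± 3.68 and COL1A2 from 326 ± 37.7 to 121 ± 6.23 (limma, adjusted p = 8.49e-04 and adjusted p = 6.17e-06).

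**Figure D4:**
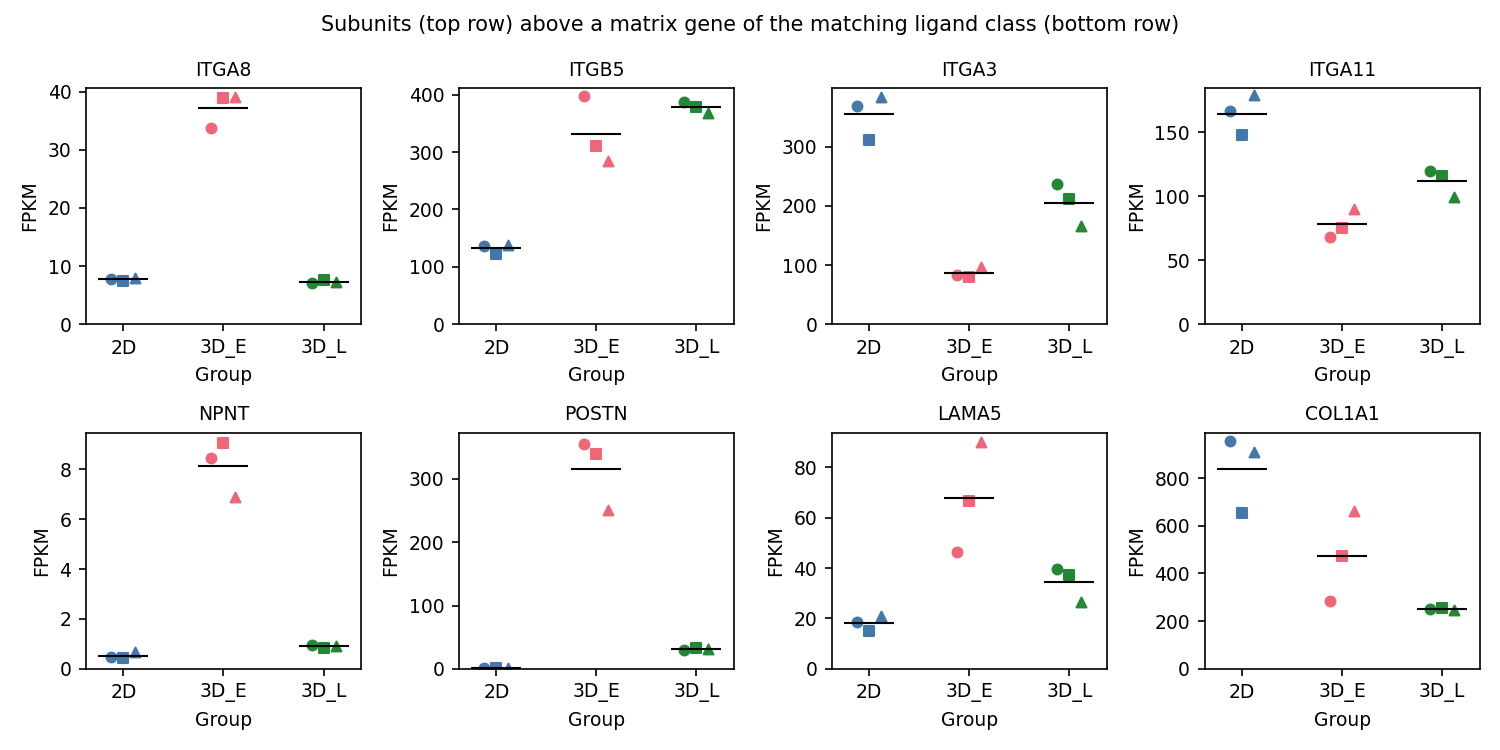
FPKM by library of 4 subunits (top) above a matrix gene listed under the matching ligand class (bottom), on linear axes from 0. Colours are groups, shapes are replicates 1 (circle), 2 (square) and 3 (triangle), and bars are group means. ITGA8 and NPNT are both highest in 3D_E, while ITGA3 is lowest and LAMA5 highest there. NPNT passed the filter for testing only through its 3D_E libraries.

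Inside the cell, 11 of the 18 listed integrin activators and inactivators were tested, and 1 rose and 6 fell in 3D_E against 2D, with a median of -0.56. RAP1B, a small GTPase that activates integrins, fell from 69.8 ± 2.56 to 36.6 ± 8.18 FPKM (limma, adjusted p = 2.26e-04). CIB1, which binds integrin tails in mammals, rose from 81.1 ± 0.998 to 179 ± 11.4. FERMT2, a kindlin, stood at 149.6 ± 1.61 in 2D, 88.7 ± 12.3 in 3D_E and 97.3 ± 3.59 in 3D_L, a fall in 3D_L of 0.62 (limma, adjusted p = 0.00135). TLN1, the talin that binds the beta tail, was picked after its values were seen. It stood at 69.0, 75.0 and 81.4 in 2D, at 39.6, 45.9 and 57.5 in 3D_E and at 59.5, 58.9 and 38.2 in 3D_L. Talin was below 2D in every suspended library, and fell by 0.66 in 3D_E (limma, adjusted p = 0.00982).

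In the adhesion complex behind integrins, 28 of 30 listed genes were tested, and 10 rose and 15 fell in 3D_E against 2D, and 4 rose and 9 fell in 3D_L. Beside these counts, 68.2% and 36.4% of all tested genes changed in the 2 comparisons. The median log2 change was -0.38 in 3D_E and -0.08 in 3D_L. TES, PARVA, which carries the kinase-like ILK to actin, and VCL, vinculin, fell most in 3D_E. They went from 255 ± 12 to 55.7 ± 3.36, from 26.2 ± 3.75 to 6.0 ± 1.35 and from 205 ± 23.4 to 56.4 ± 17.3 FPKM (limma, adjusted p = 3.22e-08, adjusted p = 4.39e-05 and adjusted p = 2.66e-05). In 3D_L, TES stood at 98.3 ± 4.29 (limma, adjusted p = 2.36e-06), and PARVA and VCL were higher than in 3D_E by 1.11 and 1.03. NEDD9 was among those that rose, from 1.74 ± 0.140 FPKM in 2D to 8.78 ± 0.414 in 3D_E and 5.66 ± 0.266 in 3D_L (limma, adjusted p = 9.11e-08 and adjusted p = 3.96e-06).

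The remaining lists went both ways in 3D_E against 2D. Of 13 tested matrix receptors other than integrins, 3 rose and 5 fell. HMMR, a hyaluronan receptor that also acts in mitosis, fell from 18.7 ± 0.496 to 3.95 ± 0.624 FPKM. DDR1, a collagen receptor kinase, rose from 2.36 ± 0.253 to 7.85 ± 1.90. The more abundant kinase DDR2, picked after its values were seen, fell from 69.8 ± 9.24 to 43.1 ± 9.78 (limma, adjusted p = 0.00289). Of 14 tested membrane partners, 4 rose and 6 fell, and the latter count was 3 without replicate 3 of 2D. CAV1, caveolin-1 of membrane caveolae, had the largest change of this list and fell by 3.25 on the log2 scale, with 361 ± 24.5 FPKM in 2D and 41.7 ± 25.3 in 3D_E (limma, adjusted p = 1.64e-05). The tetraspanin CD63 rose from 751 ± 73.6 to 3565 ± 851 and LGALS3, galectin-3, from 16.5 ± 0.663 to 99.1 ± 15.2. Of 24 tested genes of integrin trafficking, 9 rose and 7 fell. DAB2, an endocytic adaptor that binds beta tails, rose from 11.4 ± 0.694 to 28.1 ± 1.03, and EHD3, which acts in recycling, fell from 166.5 ± 1.61 to 45.5 ± 13.7. Of HMMR, DDR1, CD63, LGALS3, DAB2 and EHD3, DDR1 had the highest adjusted p-value (limma, adjusted p = 2.69e-05).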

How the data were processed

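Trizol was used for RNA extraction and oligo-dT beads for poly-A selection in all 9 libraries, per the labels' protocols. Per the file headers, the deposited values are FPKM. The submitters' processing notes list the build GRCg6a and the tools HISAT2 2.0.5, R 3.4.2 and DESeq2 without saying what each did. Which annotation and program gave the FPKM is not given in the sources used here. The low values showed no common step without gene lengths, so the depth is unknown. An unequal share of other genes in a library moves every FPKM value of it.

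All groups shared 1 limma model of log2(FPKM + 1) (limma 3.58.1, R 4.3.3), with moderated variances that follow a trend with level, 6 residual degrees of freedom and 2-sided p-values (Benjamini-Hochberg over 10436 genes that reached 1 FPKM in 3 or more libraries). The limma fit of 3D_E against 2D was tested on simulated data with known changes. There a gene had the same spread in all groups, whereas the real 3D_E libraries were more spread than the others. Shares and ratios per library were compared by exact permutation in scipy 1.17.1, and figures drawn with matplotlib 3.10.9. Among the 94 columns, 82 without a name stayed unused, and 1 line without a gene was left out. Subunits and lists were chosen with earlier results of these data known. There were 9 lists beyond the subunits, and up to 3 changed members with the largest change in a comparison could be named, as well as all further integrin subunits that reached 1 FPKM in any library. No gene position is given in the table. In the RefSeq gene table of another assembly, GRCg7b, PELO overlaps ITGA1, and uncharacterised long noncoding RNAs overlap ITGA2, ITGA6, ITGA8 and ITGAV, so reads could be shared where strand was not used. Results were recomputed with other pseudocounts, filters, scalings and variance models, with only the groups compared, with replicate number as a block and without each library; those of the lists beyond the subunits were added after seeing the data. The result of 1 listed gene is not reported here.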

Additional observations from a re-analysis of the deposited data

How the results depend on the processing

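The counts of subunits that rose or fell in the 3 comparisons stayed within 1.5 times the reported ones under all alternatives run (pseudocounts of 0.1 and 5 FPKM, no filter, a filter of 5 FPKM, quantile and median ratio scaling, only the groups compared, own spreads, no trend, and each library left out). Without single libraries, 3 rose and 4 fell in 3D_E against 2D each time, 1 rose and 2 fell in 3D_L against 2D, and 3 to 5 rose and 2 fell in 3D_L against 3D_E. The direction of ITGAV in 3D_L against 2D, not called, turned with quantile normalization (0.024), and without single libraries it ranged from -0.22 to 0.32. Also uncalled, ITGB8 in that comparison turned with quantile normalization (-0.10), ITGAD in 3D_E against 2D ranged from -0.13 to 0.031 and ITGA7 in 3D_L against 3D_E from -0.028 to 0.20 without single libraries. The cause was not tested. With every alpha subunit of the table as the whole, the RGD-binding share differed by 11.0 points in 3D_E against 2D and by -5.66 in 3D_L against 3D_E, and the share of ITGA1 with ITGA2 by 0.0657 in 3D_L against 2D. That larger whole includes ITGA11, a collagen receptor subunit outside the share, whose own share differed by -1.40 points there.

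Correlations of same-numbered deviations from the group means ran from -0.40 to 0.18. In a separate check, each library was set against the libraries of each other group, which made 18 pairs of library and group. In 4 of these 18 the correlation was highest with the own number. With 3 libraries per group such values cannot decide whether replicate numbers pair the libraries. With the replicate number as a block, 3 rose and 4 fell in 3D_E against 2D, 1 and 2 in 3D_L against 2D and 4 and 2 in 3D_L against 3D_E. In this balanced layout a block cannot move a difference of means. Over all tested genes the rising and falling calls of 3D_L against 2D numbered 1908 and 1428 with the block against 2117 and 1686 without it, and 3153 and 2630 with only the groups compared. Quantile normalization turned the balance to 1604 and 1976. Of the recomputed rising and falling counts of the other lists, 37 were marked as moved and 503 as the same under other settings. Without single libraries, 46 were marked as moved and 440 as the same. Only some of those that moved are given here. Among the other lists, the rising activators numbered 2 without a filter or with only the groups compared, and 3 without replicate 3 of 3D_L. Rising laminins in 3D_E numbered 5 without a filter, and falling ones 1 with a filter of 5 FPKM or own spreads. Rising collagens numbered 2 with that filter. Depth is unknown, so no difference has a counting error attached, including those of the low subunits ITGA1 and ITGA2.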
